A study of Mus musculus with 6 samples.

Results

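Penk encodes proenkephalin, the precursor from which the enkephalins, short opioid peptides, are cut. It is described here in mouse embryonic fibroblasts with the 3 other opioid precursors, Pdyn, Pomc and Pnoc, and with 4 receptors of opioid peptides, Oprd1, Oprm1, Oprk1 and Ogfr. These 8 genes were found by their symbol among 22180 genes measured. Each had 1 probe set that names a single gene, so no choice between probe sets was needed. Penk was chosen from the difference between the genotypes in these same arrays, so its difference is given as a description without a test. The other 7 were chosen by function, though with earlier results of these data known, and are tested with that limit.

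The arrays came from Pax7-/- fibroblasts (knockout, 3 arrays) and Pax7+/+ fibroblasts (wild type, 3 arrays), each numbered as biological replicates 1 to 3. Both genotypes were of 1 hybrid strain, F1 (C57Bl6N x 129Sv), were grown in serum-containing medium and were harvested at confluence. The titles call the cells fibroblasts, whereas the cell type label reads ESCs. Neither the labels nor the files say how old or how many the embryos were, how many cultures were made or which part of Pax7 was removed, so p-values measure the spread between these arrays, which may be technical.

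Opioid precursors are secretory proteins. Prohormone convertases cut them at pairs of basic residues, carboxypeptidase E (Cpe) trims the ends, and the peptides act on G protein-coupled receptors that couple to inhibitory G proteins. Penk is best known from neurons and adrenal chromaffin cells, and it is also expressed in mesenchymal tissues of the embryo and in cultured fibroblasts. Pax7 is a transcription factor of the paired box family that marks muscle progenitors and acts in the dorsal neural tube and neural crest.

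Values are log2 signals, so a difference of 1 is a 2-fold change, and differences are knockout minus wild type. The deposited table gives no detection calls. Each array was therefore given a background level, below which 95% of the signals of 1394 olfactory and vomeronasal receptor genes lie. It was between 4.63 and 5.44. This level does not measure absence: the ribosomal protein gene Rps20, chosen after its values were seen, lay below it on all 6 arrays (3.68 to 4.28). The replicate 3 arrays of both genotypes stood apart, with an interquartile range over all genes of 2.98 in the knockout and 3.02 in wild type, against 1.61 to 1.69 on the other 4 arrays. Pax7 itself was at 6.17, 5.95 and 5.05 in knockout replicates 1, 2 and 3, against 6.14, 5.65 and 4.88 in wild type, so this probe set did not separate the genotypes. In wild type it exceeded the background level by only 0.70, 0.32 and 0.23 in replicates 1, 2 and 3. A loss could hardly show at this level. Whether the probe set lies within the removed sequence is also not stated, so it does not check the labels.

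Penk was lower in every knockout array than in any wild type array. Its log2 signal was 6.76, 7.17 and 8.10 in knockout replicates 1, 2 and 3, against 8.46, 8.70 and 9.50 in wild type replicates 1, 2 and 3. The knockout averaged 7.34 ± 0.68 and wild type 8.89 ± 0.54 (SD, n = 3 each), a difference of -1.55 that corresponds to a signal 2.92-fold lower. The brightest knockout array, replicate 3, lay 0.37 below the dimmest wild type array, replicate 1. In all, 165 of 22180 genes (0.744%) had every knockout array below every wild type array.

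Compared by replicate number, Penk had differences of -1.70, -1.54 and -1.40 in replicates 1, 2 and 3, which is 3.26-fold, 2.90-fold and 2.64-fold lower in the knockout. These 3 differences had an SD of 0.15, close to the median SD of 0.16 among 1101 genes whose mean signal lay within 0.5 of that of Penk. The spread of Penk within a genotype was much wider than that, because replicate 3 was brightest in both: it exceeded the mean of replicates 1 and 2 by 1.13 in the knockout and by 0.91 in wild type. The 1101 genes of similar signal also had brighter replicate 3 arrays, by medians of 1.35 in the knockout and 1.32 in wild type.

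**Figure D1:**
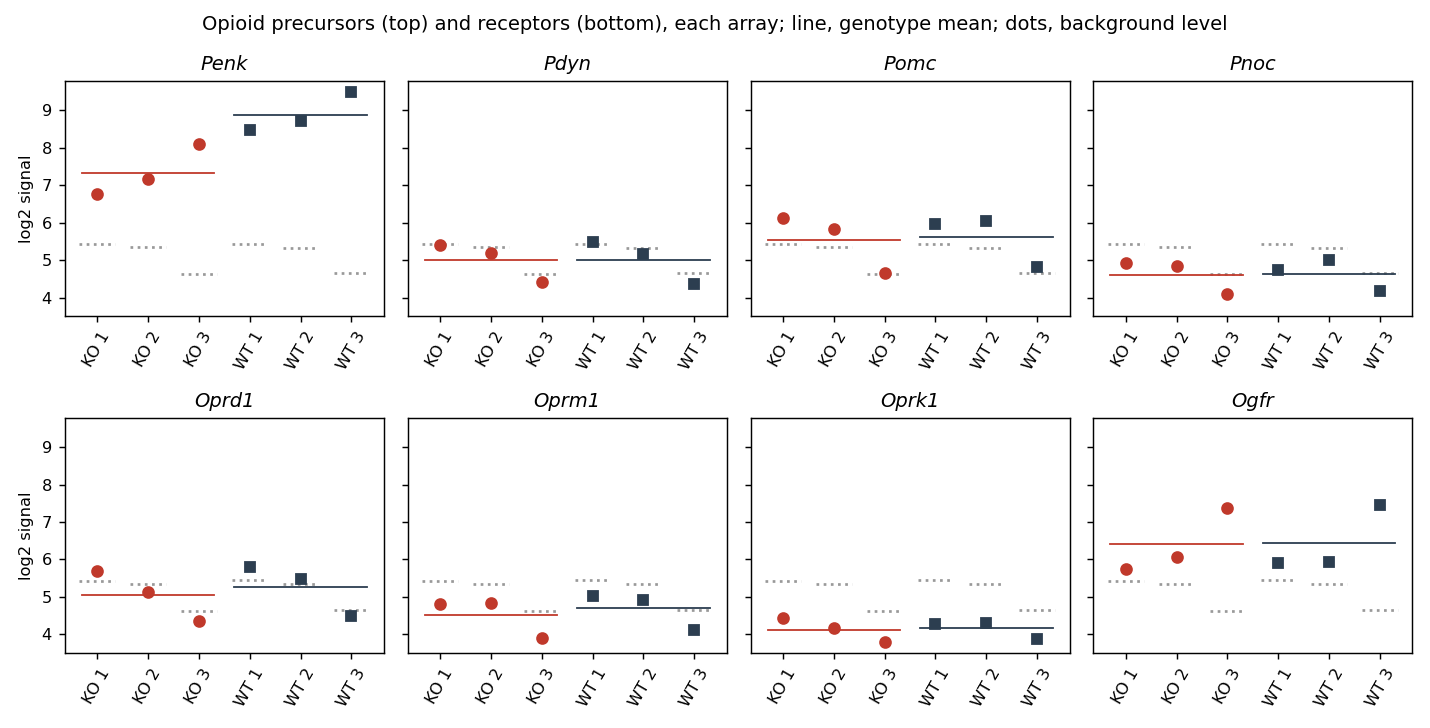
Log2 signal (vertical axis) of the 8 opioid genes on each array, with knockout arrays as circles and wild type arrays as squares. Horizontal lines are genotype means over 3 arrays and dotted segments the background level of each array (4.63 to 5.44). Penk lies far above background and is lower in all 3 knockout arrays, while Pnoc, Oprm1 and Oprk1 stay below background on all 6.

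Penk was well above background in both genotypes. It exceeded the background level by 1.33, 1.82 and 3.47 in knockout replicates 1, 2 and 3, and by 3.02, 3.37 and 4.85 in wild type. Within its array it stood at the 86.2nd, 90.7th and 87.3rd percentile of genes in the knockout, against the 97.4th, 97.5th and 96.9th in wild type. These are bulk cultures, in which fewer cells of a type and less RNA per cell cannot be told apart.

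By mean difference, Penk had the 3rd lowest value of the 22180 genes, after Dcn and Rps13. Rps13, a ribosomal protein gene chosen here after its values were seen, was below background on all knockout arrays (3.41 to 4.001) and uneven in wild type (5.16, 6.31 and 8.53 in replicates 1, 2 and 3). Among 8416 genes above background on all 6 arrays, Penk had the 2nd lowest difference in the replicate 1 pair. It had the 2nd lowest in the replicate 2 pair and the 8th lowest in the replicate 3 pair. Of these 8416 genes, 2 were lower by more than 1 in all 3 pairs. These were Penk and Dcn, the matrix proteoglycan decorin, at -2.03, -2.16 and -1.59.

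**Figure D2:**
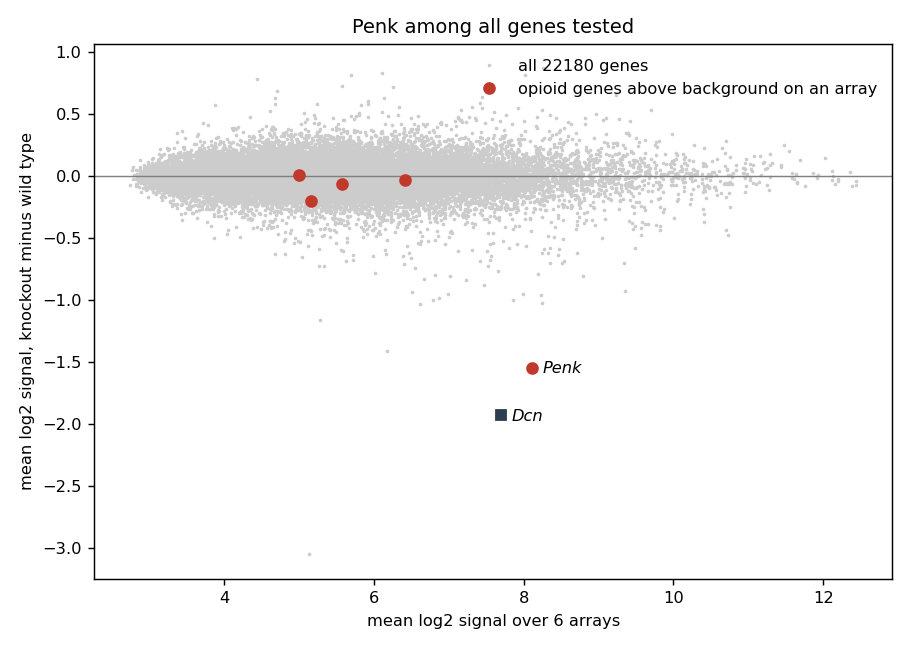
Mean log2 signal over the 6 arrays (horizontal axis) against the mean difference, knockout minus wild type (vertical axis), for all 22180 genes in grey. Circles are the 5 opioid genes above background on at least 1 array, and the square is Dcn. Penk, at -1.55, lies apart from the other 4, which lie between -0.20 and 0.01. Near background, a fall as large as that of Penk could hardly show. Pdyn, Pomc and Oprd1 lie there on all arrays and Ogfr in replicates 1 and 2.

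None of the 7 other opioid genes differed past the threshold of an adjusted p of 0.05 (limma, Benjamini-Hochberg adjustment over 22180 genes), with or without the replicate number as a block, a term that compares arrays of equal number. Without the block, limma called 0 genes (0%; 15 at an unadjusted p under 0.05), and the adjusted p was 1.00 for all 7. With it, 2 genes were higher (0.00902%) and 15 lower (0.0676%) in the knockout. The adjusted p of the 7 then lay between 0.761 for Oprd1 and 0.996 for Pdyn. All intervals given below are from the fit with the block and would be much wider without it. The standard error without the block was 0.52 for Pomc, against 0.10 with it, and 0.40 for Pdyn, against 0.09. It was 0.48 for Oprd1, against 0.09, 0.62 for Ogfr, against 0.10, and 0.47 for Cpe, against 0.09.

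Among the other precursors, only Pomc was above background on every array. Pomc, the precursor of ACTH, melanocortins and beta-endorphin, was at 6.14, 5.83 and 4.67 in knockout replicates 1, 2 and 3, against 5.97, 6.04 and 4.81 in wild type. The genotypes overlapped, and both replicate 3 arrays lay close to the background level. Its difference was -0.06, with a 95% interval of -0.30 to 0.17 in limma's fit with the block. Pomc exceeded the background level by only 0.16 to 0.71 in wild type, so a fall as large as that of Penk could hardly show.

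Pdyn, the prodynorphin gene, gave 5.41, 5.20 and 4.42 in knockout replicates 1, 2 and 3, against 5.48, 5.17 and 4.35 in wild type. It was above background on 1 array, wild type replicate 1, by 0.04, so a fall as large as that of Penk could hardly show. The Pdyn difference was 0.01 (95% interval -0.20 to 0.21 with the block, limma). Pnoc, which encodes the nociceptin precursor, lay below background on all 6 arrays, at 4.09 to 4.92 in the knockout and 4.18 to 4.998 in wild type, so no difference is given.

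Of the G protein-coupled opioid receptors, none was above background on all arrays. Oprd1 encodes the delta receptor, which enkephalins bind with high affinity. It was at 5.69, 5.14 and 4.35 in knockout replicates 1, 2 and 3, against 5.79, 5.48 and 4.50 in wild type. It was above background in knockout replicate 1 and in wild type replicates 1 and 2. In wild type these margins were only 0.35 and 0.14, so a fall as large as that of Penk could hardly show. The Oprd1 difference was -0.20 (95% interval -0.41 to 0.01 with the block, limma), lower in 3 of 3 pairs but with overlapping genotypes. Of all genes, 3056 (13.8%) were lower in all 3 pairs and 3050 (13.8%) were higher in all 3.

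Oprm1, the mu receptor gene, was below background on every array, at 3.91 to 4.85 in the knockout and 4.13 to 5.02 in wild type. Oprk1, the kappa receptor gene, whose main ligands are dynorphins, was also below it on every array, at 3.79 to 4.43 in the knockout and 3.89 to 4.31 in wild type. Neither gives a difference.

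Ogfr, the opioid growth factor receptor, is unrelated in structure to the G protein-coupled opioid receptors and binds the Penk product met-enkephalin. It was above background on all arrays, at 5.76, 6.07 and 7.39 in knockout replicates 1, 2 and 3, against 5.91, 5.93 and 7.46 in wild type. The replicates of equal number were close together and the genotypes overlapped. Its difference was -0.03 (95% interval -0.25 to 0.19 with the block, limma). Of the 4 receptors, Ogfr was the 1 above background on all 6 arrays. In wild type it exceeded the background level by only 0.48 and 0.60 in replicates 1 and 2, and by 2.81 in replicate 3. A fall as large as that of Penk could hardly show in replicates 1 and 2.

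Other genes of the opioid pathway were taken from 10 lists of receptor relatives, signalling, precursor processing, peptide degradation, secretory granules, promoter factors, other peptide precursors and neighbouring genes, with the precursors and receptors themselves. Besides Penk these held 143 measured genes. Of the 143, limma called 0 without the block and 0 with it, the smallest adjusted p with the block being 0.107. At an unadjusted p under 0.05 they were 0 without the block and 19 with it (13.3%, against 6.73% of all genes). Of the 143, 25 (17.5%) were lower and 20 (14%) higher in all 3 pairs, and their median difference was -0.01, against -0.00 over all genes.

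Of 3 receptor relatives measured, Ackr3 was above background on all 6 arrays. Ackr3 is an atypical chemokine receptor that also binds and removes opioid peptides. It averaged 6.33 ± 0.11 in the knockout and 6.45 ± 0.10 in wild type (SD, n = 3 each), a difference of -0.12 (adjusted p = 0.875 with the block, limma). Unlike Penk and Ogfr, it was not brighter on the replicate 3 arrays. Of 28 signalling genes measured, 18 were above background on all arrays and the median difference was 0.04. The lowest p-values belonged to Grk5, a receptor kinase (-0.14, -0.27 and -0.61 in the 3 pairs), and Adcy5, an adenylyl cyclase (-0.28, -0.16 and -0.43), with adjusted p = 0.588 and 0.603 with the block (limma).

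Part of the processing machinery was present. Cpe was at 8.83, 8.89 and 10.06 in knockout replicates 1, 2 and 3, against 8.72, 8.84 and 9.84 in wild type. It was slightly higher in each knockout array than in the wild type array of equal number, with a difference of 0.13 (95% interval -0.08 to 0.34 with the block, adjusted p = 0.852, limma). Pcsk1, the convertase PC1/3 of neuroendocrine cells, was below background on all arrays, at 3.70 to 4.13 in the knockout and 3.60 to 4.38 in wild type. Pcsk2, the other neuroendocrine convertase, had no single-gene probe set and was not analysed here.

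In all, 17 processing genes were measured, with a median difference of -0.04. Ctsl, cathepsin L, which can cut proenkephalin in secretory vesicles, averaged 9.32 ± 0.66 in the knockout and 9.08 ± 0.62 in wild type (SD, n = 3 each). Its difference was 0.24, with 0.26, 0.17 and 0.29 in the 3 pairs (adjusted p = 0.679 with the block, limma). Cpz, a secreted metallocarboxypeptidase, was the 1 gene of the 143 whose knockout arrays all lay below its wild type arrays, at 5.87, 5.85 and 5.71 in knockout replicates 1, 2 and 3, against 6.41, 5.87 and 6.13 in wild type. The highest knockout and lowest wild type array were nearly equal, and 1 gene of 143 is about the share over all genes (0.744%). Its difference was -0.32 (adjusted p = 0.646 with the block, limma). Furin, a convertase of most cell types chosen here after its values were seen, was above background on all 6 arrays, with a difference of 0.21 (adjusted p = 0.750 with the block).

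Of 8 measured peptidase genes on the peptide degradation list, 3 were above background on all arrays. Ece1, endothelin-converting enzyme, was at -0.09, -0.18 and -0.31 in the 3 pairs, and Npepps, the puromycin-sensitive aminopeptidase, at 0.24, 0.02 and 0.20 (adjusted p = 0.765 and 0.809 with the block, limma). Mme encodes neprilysin, the classical enkephalinase, and was chosen here after its values were seen. It was below background on the arrays of replicates 1 and 2. On replicate 3 it was at 5.39 in the knockout, against 6.82 in wild type. Its mean difference of -0.65, the largest in size among the 143 pathway genes, rests on that 1 pair. The adjusted p was 0.573 with the block (limma).

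Genes of the regulated secretory granule were mostly dim: 5 of 7 were below background on every array. Vgf, a granule peptide precursor, was at 6.31, 6.33 and 5.59 in knockout replicates 1, 2 and 3, against 6.49, 6.42 and 6.06 in wild type (difference -0.25, adjusted p = 0.716 with the block, limma). Chga, chromogranin A, was at 5.93, 5.84 and 4.89 in the knockout, against 5.82, 5.97 and 4.98 in wild type. Both were above background, and neither differed past the threshold.

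Of 17 measured genes for factors known to act at the Penk promoter, chiefly CREB, AP-1, NF-I and NF-kB proteins, 14 were above background on all arrays. At an unadjusted p under 0.05 in limma they were 0 without the block and 6 with it, against 6.73% of all genes with it. In all 3 pairs 6 were lower and 4 higher, each against 13.8% of all genes. The shares over all genes include many dim genes, and 0 of the 17 were called. Fosb, an AP-1 subunit, had the smallest adjusted p of the pathway genes. It was at 7.56, 7.37 and 8.36 in knockout replicates 1, 2 and 3, against 6.74, 6.99 and 7.64 in wild type. It was higher in 3 of 3 pairs, by 0.82, 0.38 and 0.72, opposite in sign to Penk, and the adjusted p was 0.107 with the block (limma). Nfib, an NF-I family factor, was at -0.20, -0.44 and -0.18 in the 3 pairs (adjusted p = 0.646).

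Of 36 other peptide hormone and neuropeptide precursors, 16 were above background on all arrays. The differences of all 36 lay between -0.27 and 0.31 with a median of -0.01. Of the 36, 11 were above background on no array, where a fall as large as that of Penk could hardly show. Edn1, the endothelin-1 precursor, was at 0.34, 0.09 and 0.49 in the 3 pairs, and Cck, the cholecystokinin precursor, at 0.05, -0.34 and -0.49 (adjusted p = 0.609 and 0.739 with the block, limma).

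**Figure D3:**
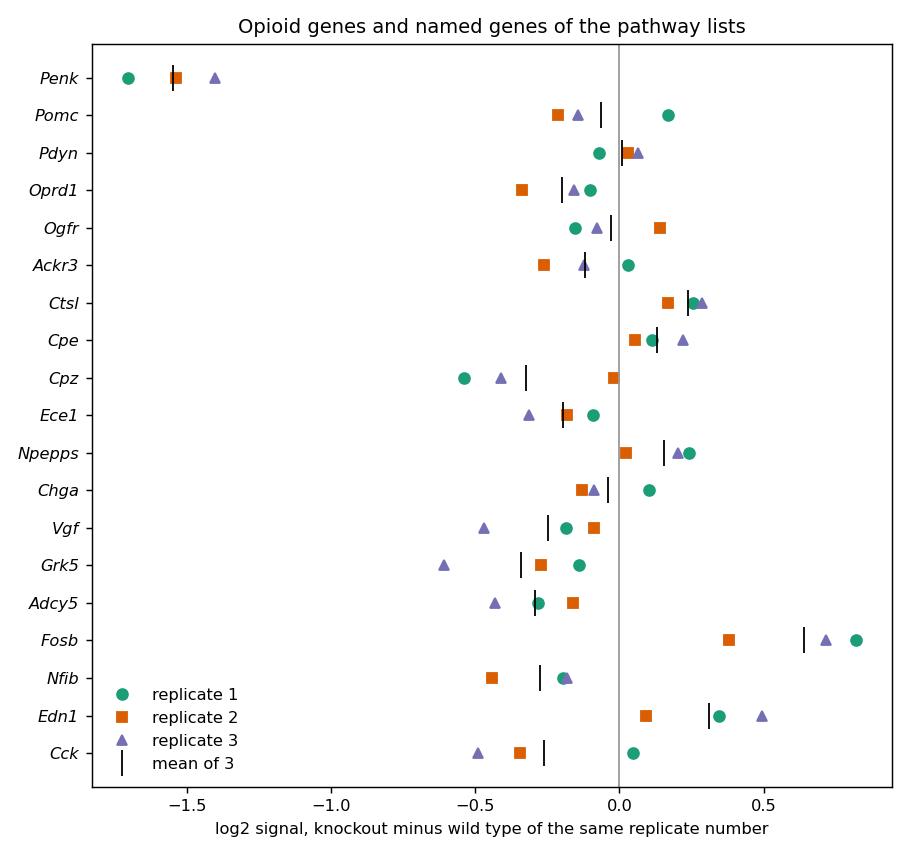
Log2 signal of the knockout array minus that of the wild type array of the same replicate number (horizontal axis) for Penk, 4 other opioid genes and the named genes of the pathway lists. Symbols are replicates 1, 2 and 3 and the black bar is their mean. The 3 values of Penk lie between -1.70 and -1.40, and the next lowest mean shown is that of Grk5 at -0.34. Not drawn are Mme, whose mean was lower than that of Grk5 at -0.65, and the neighbours of Penk.

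Penk and Pax7 both lie on chromosome 4, at separate places. The 10 nearest measured genes on each side of Penk were taken in the order of the RefSeq table of GRCm38.p6. Predicted genes, with symbols of Gm and digits or ending in Rik, were left out. These neighbours had a median difference of -0.03. By limma 0 of the 20 were called with or without the block, and 1 had an unadjusted p under 0.05 with it. The values ran from -0.23 to 0.21. Bpnt2, the nearest of these genes on 1 side, encodes a Golgi nucleotide phosphatase. It was at 6.07, 6.17 and 8.20 in knockout replicates 1, 2 and 3, against 6.003, 6.77 and 8.36 in wild type. Its differences were 0.07, -0.60 and -0.16. Sdr16c6, the nearest of them on the other side, was below background throughout. Chd7, a chromatin remodeller, was at 0.18 (adjusted p = 0.790 with the block, limma). Of the 20 genes, 4 were above background on all arrays and 6 on none.

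**Figure D4:**
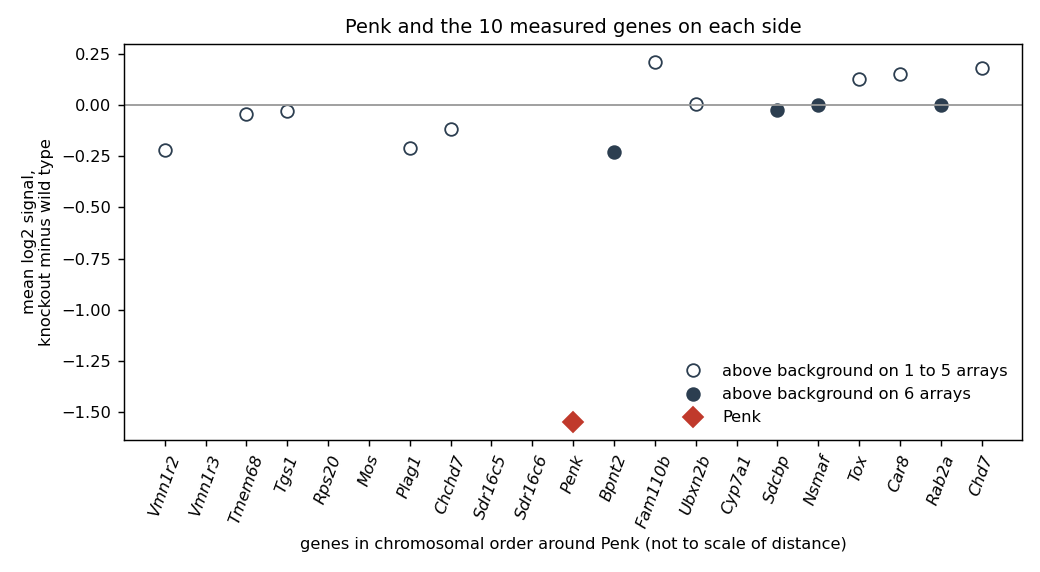
Mean log2 signal, knockout minus wild type (vertical axis), for Penk and the measured genes beside it, without predicted genes, in chromosomal order (horizontal axis, not to scale). Filled circles are genes above background on all 6 arrays, open circles those above it on 1 to 5, and genes above it on none are left blank. Penk lies at -1.55, and the neighbours drawn lie between -0.23 and 0.21.

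Genes with a pattern like that of Penk over the 6 arrays were sought among the 8415 other genes above background on all of them. The measure was the root mean square (RMS) difference in log2 signal after each gene was centred on its mean, with Pearson's r beside it. The points share the step between replicate 3 and the other arrays as well as the genotype difference by which Penk was chosen. No p is given. The median over the 8415 genes was an RMS difference of 0.88 and an r of 0.46, and 30 genes had an r above 0.9.

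Dcn was closest by both measures, with an RMS difference of 0.28 and an r of 0.991. Its signal was 6.18, 6.23 and 7.80 in knockout replicates 1, 2 and 3, against 8.21, 8.39 and 9.40 in wild type, so knockout replicate 3 lay below all wild type arrays, as for Penk. Next by RMS difference were Igfbp2, an IGF-binding protein (0.33, r = 0.952), Ccn3, a matricellular protein (0.37, r = 0.920), and Eln, elastin (0.38, r = 0.917). Mest, an imprinted gene of mesoderm (0.40, r = 0.916), and Cyb5r3, a cytochrome b5 reductase (0.41, r = 0.977), followed. Their mean differences lay between -1.04 for Eln and -0.92 for Cyb5r3, about 2-fold lower in the knockout. In Ccn3, Igfbp2, Mest and Eln, knockout replicate 3 exceeded at least 1 wild type array, whereas Penk had no such overlap.

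By r, the nearest after Dcn were Postn (r = 0.979), Cyb5r3, Col6a1 (r = 0.974), Timp3 (r = 0.973) and Ifitm3 (r = 0.971). Postn encodes periostin, Col6a1 a chain of collagen VI, Timp3 an inhibitor of matrix metalloproteinases and Ifitm3 an interferon-induced membrane protein. Their differences were smaller than that of Penk, between -0.47 for Timp3 and -0.31 for Ifitm3.

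**Figure D5:**
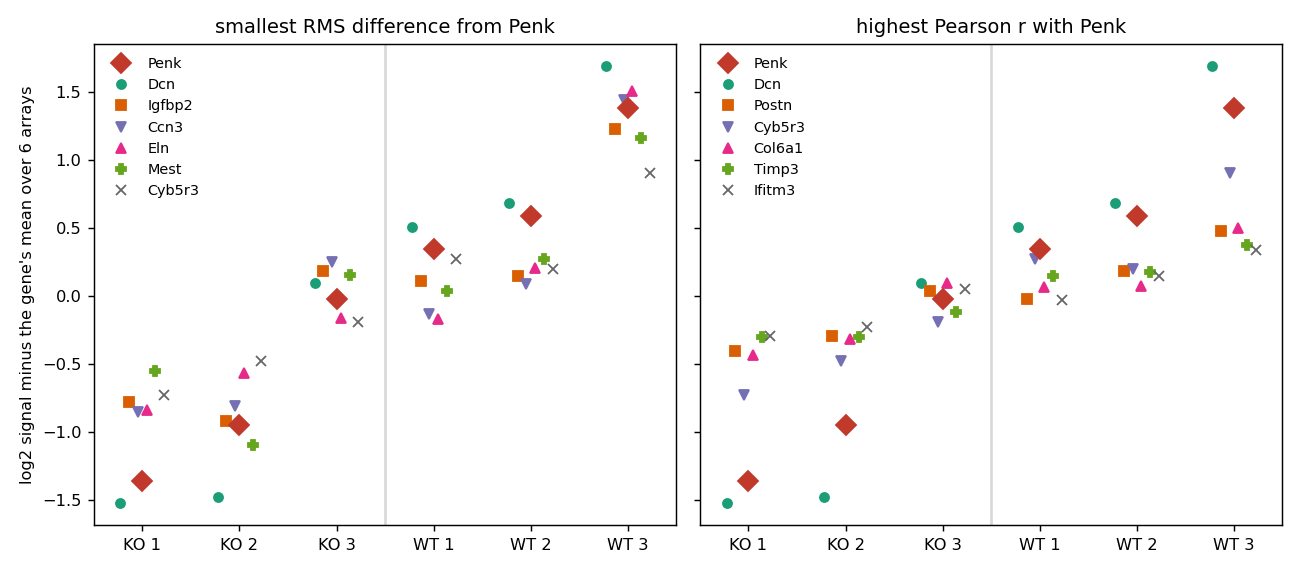
Log2 signal minus each gene's own mean over the 6 arrays (vertical axis) on each array (horizontal axis), for Penk and the 6 genes closest by RMS difference (left) or by Pearson's r (right). Diamonds are Penk and other symbols the genes named in the legends. Dcn follows Penk most closely, and Postn, Col6a1, Timp3 and Ifitm3 move with Penk in smaller steps.

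Markers of the cell types in which Penk is best known were dim. Of 15 neuron markers 3 were above background on all arrays, and of 7 measured chromaffin cell markers 2 were, Dbh and Chga. Th, the tyrosine hydroxylase of catecholamine synthesis, was below background on all 6. The summed linear signal of the neuron list was 706 to 913 in the knockout and 704 to 764 in wild type, and that of the chromaffin list 136 to 266 in the knockout and 143 to 255 in wild type. Neither list separated the genotypes.

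Fibroblast markers were bright, with 13 of 15 above background on all arrays and a median rank of 95.9 to 98.6 percent among the genes of an array. Their summed linear signal was 14696 to 17757 in the knockout and 15028 to 18611 in wild type. Of the 15, 8 were lower in all 3 pairs and 1, Fn1, was higher in all 3. Over all genes each of these shares was 13.8%. With the block, 6 of the 15 had an unadjusted p under 0.05 in limma, against 6.73% of all genes. Among the 15, 1, Dcn, was called lower, against 0.0676% of all genes. Of all 22180 genes 8416 were above background on all arrays, so these shares come from a dimmer set than the markers. Shares among the brighter genes alone were not counted. Of pluripotency markers 3 of 13 were above background on all arrays. Skeletal muscle markers, 4 of 9 above background on all arrays, summed to 1072 to 1253 in the knockout and 837 to 1060 in wild type, with the lowest knockout array just above the highest wild type array. Of these 9, limma called 0 with or without the block, and their median difference was 0.09. Acta1, skeletal actin, was at 9.07, 9.24 and 9.78 in knockout replicates 1, 2 and 3, against 9.11, 9.10 and 9.08 in wild type. Its genotypes overlapped, and its difference rested mainly on replicate 3 (adjusted p = 0.784 with the block, limma). Des, desmin, was the 1 of the 9 whose knockout arrays all lay above its wild type arrays, as in 148 of all 22180 genes. It was at 6.68, 6.68 and 7.38 in knockout replicates 1, 2 and 3, against 6.61, 6.56 and 6.64 in wild type. Its pair differences were 0.07, 0.12 and 0.73 (adjusted p = 0.727 with the block, limma). The part of any of these lists in the Penk difference was not tested.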

How the data were processed

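For each probe set of 6 Affymetrix arrays the authors deposited a log2 signal. The submitters' processing notes name Partek and RMA (robust multi-array average), without versions or settings. That the logarithm is to base 2 was inferred from how far the values span. Of 41345 probe sets, 23521 named 1 gene in the platform annotation, 1814 named several and 16010 were not listed. For genes with several probe sets (1082 genes) the brightest by mean signal was kept, leaving 22180 genes. The table had 0 missing values and 0 identical pairs of arrays.

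The genotypes were tested against each other in limma 3.58.1 under R 4.3.3 (two-sided moderated test after lmFit and eBayes, Benjamini-Hochberg adjustment, threshold 0.05), tested on simulated data first. Equal replicate numbers deviated together from their genotype means (correlations 0.920, 0.895 and 0.973), and the replicate number became a block in a second fit. This pairing comes from the data, not from the labels. Both replicate 3 arrays stood apart, so high correlations would arise for replicates 1 and 2 however these were matched. Arrays of unequal number were not correlated, so the matching of replicates 1 and 2 was not checked. The members and lists were chosen with earlier results of these data known. Named genes were Pax7, the 8 members, Pcsk1, Pcsk2 and Cpe, up to 3 called genes per list or else the 2 with the smallest p in the blocked fit among genes above background on all arrays of a genotype, and the 6 most like Penk by each measure. Genes named otherwise are said to be so, apart from markers. For arrays, their number limits the precision. Alternatives were the block, a batch term, left-out arrays, renormalization, a filter on dim genes, the probe set rule and limma's trend and robust settings. Array scaling to a common spread was added after the data were seen.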

Additional observations from a re-analysis of the deposited data

How the results depend on the processing

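The Penk difference was negative under all 16 alternatives, with a range of -1.92 to -1.24. Both ends come from leaving out 1 array, without knockout replicate 3 and without wild type replicate 3, so that replicate 3 then counts in 1 genotype alone. The replicate block, the batch term and the mean of probe sets could not move the value from -1.55. The genotypes were balanced over the replicates, and Penk had 1 probe set. Penk was also chosen from this contrast, so its constant sign is a description. In fits with the replicate block that dropped 1 replicate number the Penk difference ranged from -1.62 to -1.47. It was -1.53 after quantile normalization. The number of genes called by limma was 0 without a block, 17 with the replicate block, 19 with replicate 3 as a separate batch and 1 within replicates 1 and 2 alone. With the replicate block it was 98 without replicate 1, 2 without replicate 2 and 4 without replicate 3, and leaving out 1 array without a block gave 0 to 0. Of the 143 pathway genes other than Penk, 0 were called under any of the 17 alternatives.

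The small differences of Ogfr, Oprd1, Pdyn and Pomc changed sign under some alternatives and passed the threshold under none. Without 1 array they ranged from -0.52 to 0.48 for Ogfr, -0.58 to 0.16 for Oprd1, -0.32 to 0.30 for Pdyn and -0.46 to 0.37 for Pomc. With the replicate block and without 1 replicate number they ranged from -0.12 to 0.032 for Ogfr, from -0.25 to -0.13 for Oprd1, which kept its sign there, from -0.021 to 0.05 for Pdyn and from -0.18 to 0.013 for Pomc, Pdyn being at -0.0038 without replicate 2. Pdyn was at -0.021 within replicates 1 and 2 and at -0.012 after quantile normalization. The replicate block changed no call among the 7 other opioid genes and the 143 pathway genes.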

Other observations

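The nearly equal Penk differences of the 3 pairs depended on the scale. After each array was centred on its median and scaled to 1 common interquartile range, a setting chosen after seeing the data, they were -2.27, -1.82 and -0.94 in replicates 1, 2 and 3, with a mean of -1.68. In percentile points of the genes on each array, the differences were -11.2, -6.79 and -9.64. The direction was the same in all 3 pairs on each scale, while the order of the pairs by size was not: the replicate 3 pair was the smallest on both log2 scales and the replicate 2 pair was the smallest in percentile points.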
